A study of Trichechus manatus latirostris with 11 samples.

Results

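The genes described here encode histone modifiers and chromatin remodelers. They were chosen by symbol: a row of the deposited table belonged to the set when the TriManLat1.0 RefSeq symbol of its transcript record began with KDM, KMT, SETD, HDAC, SIRT, KAT, SMARC, CHD, BRD, ARID, TET or DNMT in the numbered forms of these families. The set held 76 rows of 64 genes, out of 15298 rows of which 10080 carried a RefSeq symbol. The RefSeq table lists 108 symbols of this form, and the other 44, among them KDM1A, KDM6B, SETDB1, HDAC4, HDAC5, HDAC7, KAT2B, ARID5A, CHD4, CHD7, TET3 and DNMT1, are not analysed here.

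RNA from buffy coats, the white cell layer of centrifuged blood, of adult Florida manatees was depleted of ribosomal and globin RNA and sequenced. The red tide group comprised 4 animals under treatment for red tide illness at Lowry Park Zoo, some sampled on arrival and others after a week of treatment. The control group comprised 7 animals: 4 from Crystal River, 2 from the Indian River Lagoon and 1 recovering from pneumonia at the zoo. Place and date of sampling and medical care differed between most animals of the groups, and by the paper's account storage may have differed too. These and the red tide cannot be told apart. The paper lists 1 female in each group and the other animals as male.

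The deposited table gives normalized counts, which are read counts divided by a size factor for each library, as means over 4 and over 7 libraries and over all 11. Its columns do not name their groups. The overall mean equalled the weighted mean of 4 and 7 libraries in every row, with a largest relative deviation of 3.34e-09, so the first mean averages as many libraries as there are red tide animals and the second as many as there are controls. The assignment rests on these sizes and on the order of the groups in the title of the table. The direction that the paper prints for some genes runs against it, so it is not certain which mean belongs to which group of animals. The means are therefore called the 4-library mean and the 7-library mean, and no direction is given for red tide against control. Size factors, which stand for relative depth, were 1.56, 1.03, 0.620 and 0.372 in the 4 libraries and lay between 0.702 and 1.73 in the 7. The means carry no error of their own, so that a difference between them could be set against the spread between libraries only for weakly expressed rows, whose reads in single libraries could be recovered.

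DNA in the nucleus is wound around histones, and enzymes that add or remove methyl and acetyl groups on histone tails help to set which genes can be read. Remodelers use ATP to slide or evict the histone cores, and bromodomain proteins bind acetylated lysines. In white blood cells these enzymes take part in lineage choice and in the activation of inflammatory genes, and several of them, such as TET2, DNMT3A and KMT2A, are recurrently mutated in blood cancers.

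Somewhat more rows of the set were lower than higher in the 4-library mean. In 33 of 76 rows (43.4%) the 4-library mean exceeded the other, against 56.4% of all rows of the table. The log2 ratio, the 4-library mean divided by the 7-library mean, ran from -3.57 to 3.04 in the set, with a median of -0.07, against 0.14 over all rows. Since rows of low mean rest on a few reads, the rows with an overall mean of at least 10 were also counted. The overall mean weighs the 7 libraries more than the 4, so this minimum leaves out rows high in the 4-library mean more readily than rows high in the other. Of the 76 rows 59 passed that minimum, and 21 of the 59 (35.6%) were higher in the 4-library mean, against 49.2% of the 10225 such rows in the table. Their median log2 ratio was -0.09, against -0.01 over all such rows, and 36 of the 59 (61.0%) differed by less than 1.5-fold, against 55.6%. These are descriptions of group means and carry no test.

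A difference of at least 2-fold, the threshold used for a call, was seen in 10 of the 59 rows. In 3 of them, SIRT1, SETD9 and a row of KAT7, the 4-library mean was higher, which is 5.08% against 12.3% of all rows with that minimum. In 7 of them, ARID1A, KDM2A, a row of CHD9, KMT5C, KMT2D, SIRT4 and KMT2B, the 7-library mean was higher, which is 11.9% against a background of 9.59%. Of these 7, ARID1A, CHD9, KMT5C and SIRT4 had a 4-library mean under 10, and the row of KAT7 had a 7-library mean under 10, so these 5 passed the minimum only through the group where they were high and had to differ. With no minimum 8 and 9 of the 76 rows were past 2-fold in the first and second direction, among the 8 CHD5 and a row of HDAC9, which is 10.5% and 11.8% against 23.9% and 10.4% of all rows. The counts are given as a description, and nothing is read from their split between the directions. Members just short of the threshold were rows of CHD3 with a log2 ratio of 0.98 and of KDM6A with 0.97, and SMARCD2 with -0.95. Just inside it lay KMT2B, with -1.07. The lower limit on the mean was met by KMT5C with an overall mean of 10.003.

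**Figure D1:**
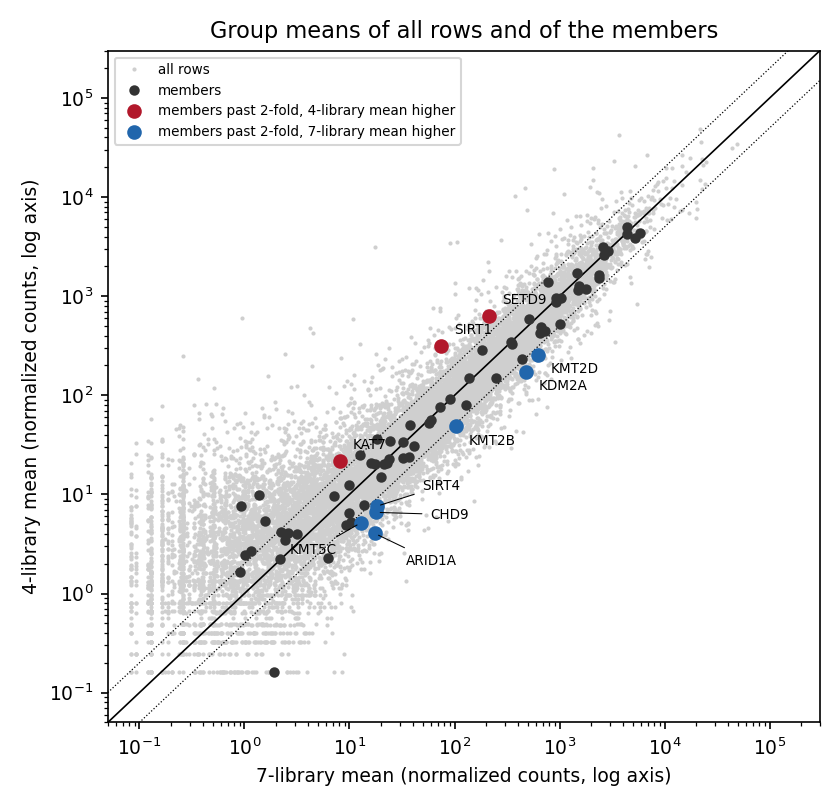
Mean normalized counts of every row (grey) and of the 76 member rows, with the 7-library mean across and the 4-library mean up, both on log axes; the solid line marks equal means and the dotted lines a 2-fold difference. The 3 red points are the members called higher in the 4-library mean and the 7 blue points those called higher in the 7-library mean; most other members follow the diagonal.

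Cell type markers differed between the same means, and these were measured in the same mixture of cells. All 9 neutrophil marker rows with an overall mean of at least 10 were at least 2-fold lower in the 4-library mean and their median log2 ratio was -2.41; of 18 markers listed, 11 had a row, their summed level was 2254 in the 4-library and 12827 in the 7-library mean, and S100A9 was the most abundant. The weak rows of MPO and MME, under that minimum, ran the other way, with means of 4.44 and 2.34 and of 1.95 and 1.30. All 7 platelet marker rows, of 11 markers listed, were higher in the 4-library mean, 5 of them by at least 2-fold; their median was 1.66 and their summed level 15428 against 4531, led by TUBB1. Monocyte, T cell and B cell markers had medians of -0.14, -0.17 and -0.44 over 7, 8 and 5 rows, erythroid markers -0.24 over 4, and the single NK cell row -0.68. The sign for T cells depended on that minimum: over all 9 rows, 4 of them records of LEF1, the median was 0.07. Since the assignment of the means is not certain, these marker values do not say in which group of animals neutrophil or platelet transcripts were higher. Their part in the values of the chromatin genes was not tested. In a mixture of cells, fewer cells of a type and less RNA per cell cannot be told apart.

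Lysine methyltransferases, which write methyl marks on histones and other proteins, had 12 rows, each of a different gene and each with an overall mean of at least 10. The 4-library mean was higher in 4 of them and the median log2 ratio was -0.35. All 4 genes of the KMT2 family in the set were lower in the 4-library mean. KMT2D, which marks enhancers, had a 4-library mean of 257 and a 7-library mean of 619, a log2 ratio of -1.27. KMT2B, which marks promoters, had means of 48.8 and 103. KMT2A, the enzyme fused to other proteins in leukemias with MLL rearrangement, had means of 1541 and 2376, a log2 ratio of -0.62, and KMT2E, a family member with no established methyltransferase activity, 4366 and 5803, a log2 ratio of -0.41.

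SETD9, a SET domain protein of little known function, went the other way, with a 4-library mean of 626 and a 7-library mean of 215, a log2 ratio of 1.55. SETD2, the main writer of trimethylation along transcribed genes, was nearly equal in both means, at 4231 and 4418. KMT5C, which methylates histone H4 in heterochromatin, had means of 5.16 and 12.8 and rested on 13 reads in the 4 libraries. Its normalized counts there were 4.49, 0, 0 and 16.1, so 1 library carried most of the signal and lay above the 7-library mean. Without the library of size factor 0.372 the 7-library mean was 8.53-fold higher, and without the library of size factor 1.03 or that of 0.620 it was 1.86-fold higher, short of a call. KMT2B had normalized counts of 52.0, 30.2, 32.2 and 80.7, all under the 7-library mean of 103. Its fold fell short of a call without the library of size factor 1.03, at 1.87-fold, or without that of 0.620, at 1.89-fold.

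Lysine demethylases, which remove methyl marks, had 9 rows of 6 genes with a median log2 ratio of -0.04, and 4 rows were higher in the 4-library mean. The median was -0.32 over the 6 rows with an overall mean of at least 10, of which 2 were higher; the 3 rows left out were weak records of KDM6A. KDM2A, which is recruited to CpG islands, was the only demethylase row past 2-fold with an overall mean of at least 10, at 174 in the 4-library and 482 in the 7-library mean, a log2 ratio of -1.47. KDM5B, an eraser of methylation at active promoters, had means of 450 and 732 and a log2 ratio of -0.70. Its relative KDM5A was close to equal, at 2597 and 2676. KDM6A, which removes the methyl mark placed by Polycomb, had 4 rows. The most abundant of them, record XM_004376912.1, had means of 36.0 and 18.4, a log2 ratio of 0.97, with 20.5, 29.2, 48.4 and 45.7 in the 4 libraries. All 4 values lay above the 7-library mean, and the fold, 1.96 with all of them, was 2.24 without the library of size factor 1.56, 2.08 without that of 1.03, 1.73 without that of 0.620 and 1.78 without that of 0.372.

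**Figure D2:**
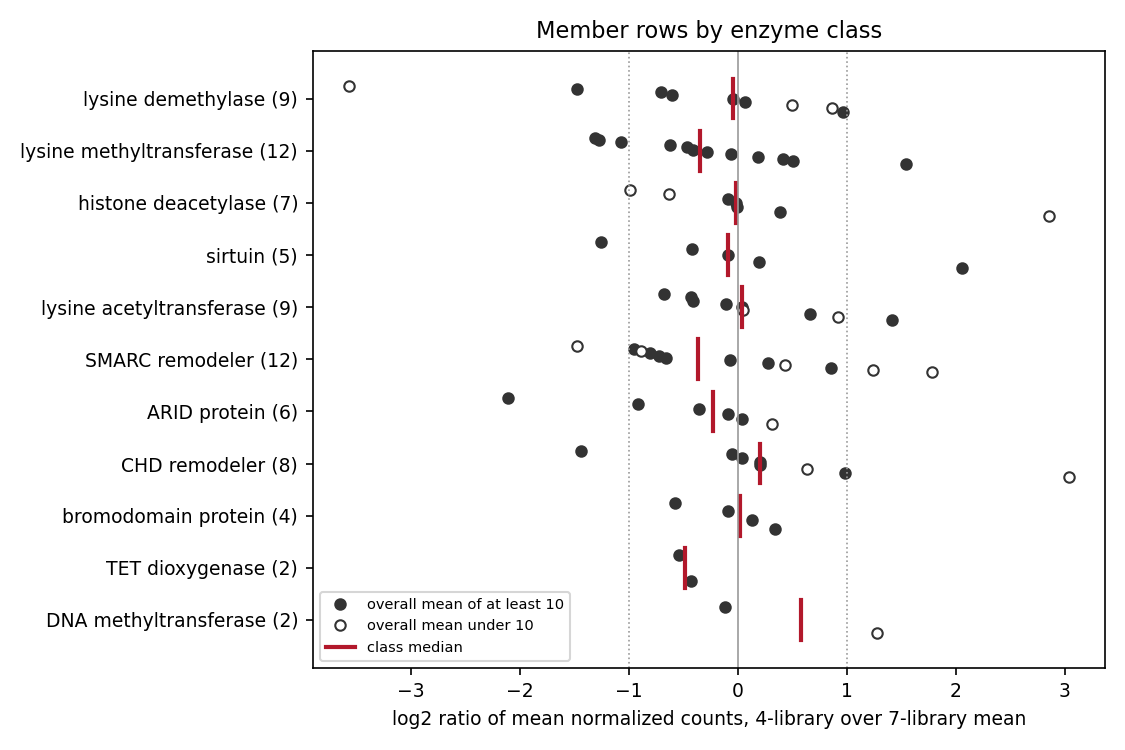
Log2 of the 4-library mean divided by the 7-library mean for each member row, by enzyme class with the number of rows in brackets; filled points have an overall mean of at least 10, open points a lower one, red bars are class medians and dotted lines mark 2-fold. Methyltransferase and SMARC rows lean to the left (medians -0.35 and -0.36), and the points far to the right are mostly open.

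The zinc-dependent histone deacetylases had 7 rows of 6 genes and a median log2 ratio of -0.02. HDAC1, HDAC2 and HDAC3, the catalytic subunits of the main nuclear corepressor complexes, were nearly equal between the groups. HDAC1 had means of 2864 and 2905, HDAC2 329 and 351, and HDAC3 344 and 347. The log2 ratios were -0.02, -0.09 and -0.01. That of HDAC3, -0.0107, turned positive after centring on -0.0122, the median over the table rows that passed the minimum of 10. HDAC10, which also acts on polyamines, had means of 20.9 and 15.9 with values of 32.1, 22.4, 21.0 and 8.07 in the 4 libraries, on both sides of the 7-library mean. HDAC9, a deacetylase of class IIa with a role in muscle and in T cells, had rows of opposite direction: record XM_004377428.1 had means of 9.93 and 1.37, and record XM_004377431.1 had means of 5.21 and 10.4.

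Sirtuins, deacylases that consume NAD, had 5 rows and contained the largest 4-library excess among members with an overall mean of at least 10. SIRT1, a nuclear enzyme that deacetylates histones and transcription factors, had a 4-library mean of 312 and a 7-library mean of 75.1, which is 4.16-fold higher. Its mean was above the limit at which reads of single libraries could be recovered, so the spread behind this fold is not known. SIRT4, a mitochondrial member of the family, had means of 7.59 and 18.1, with 17.3, 3.89, 6.45 and 2.69 in the 4 libraries. The first of these values was close to the 7-library mean and the others lay under it. Without the library of size factor 1.56 the 7-library mean was 4.17-fold higher, and without that of size factor 0.372 it was 1.96-fold higher, short of a call. SIRT2, SIRT5 and SIRT7 had log2 ratios of 0.19, -0.09 and -0.42. With the library of size factor 0.620 left out SIRT2 had -0.04, and with that of 0.372 left out SIRT5 had 0.23.

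Lysine acetyltransferases had 9 rows of 6 genes and a median log2 ratio of 0.04; 5 rows were higher in the 4-library mean. The median turned to -0.10 when the 2 rows with an overall mean under 10 were left out, and 3 of the other 7 were higher. KAT6A, a regulator of blood stem cells, had means of 3903 and 5189, a log2 ratio of -0.41. KAT8, which acetylates histone H4, had means of 80.2 and 128, a log2 ratio of -0.68. KAT7, an acetyltransferase linked to the licensing of replication origins, had 2 rows. Record XM_004377952.1 had means of 21.6 and 8.12 and values of 16.0, 15.6, 38.7 and 16.1 in the 4 libraries. Each of the 4 lay above the 7-library mean, but without the library of size factor 0.620 the fold was 1.96, short of a call. This record passed the minimum only through its 4-library mean. Record XM_004377951.1 had means of 2.25 and 2.18, and its ratio was 0.790 when the library of size factor 1.56 was left out and 0.886 when that of 0.620 was.

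The bromodomain proteins, which read acetylated lysines, had 4 rows and a median log2 ratio of 0.02, and none of them was past 2-fold. BRD10 had the lowest ratio of this class, with means of 1194 and 1785, and BRD2, a protein of the BET family, the highest, with 12.4 and 9.79. The 4 values of BRD2 ran from 0.974 to 24.2, a range much wider than the difference between the means, and without the library of size factor 0.372 the ratio was 0.865. BRD7, a subunit of a SWI/SNF complex, had means of 967 and 1032.

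The SMARC genes encode ATPases and subunits of SWI/SNF and related remodelers, and had 12 rows of 10 genes with a median log2 ratio of -0.36. Their summed level ran the other way, at 6148 in the 4-library and 5619 in the 7-library mean, led by SMARCA5. Over the 7 rows with an overall mean of at least 10 the median was -0.66, and none of these was past 2-fold. SMARCE1, a DNA-binding subunit, had the highest ratio among those rows, with means of 1395 and 772 and a log2 ratio of 0.85. SMARCD2, a subunit needed for granulocyte development, had the lowest, with 524 and 1013 and a log2 ratio of -0.95. Of the ATPases, SMARCA5, the motor of ISWI complexes, had means of 3138 and 2583. SMARCA4, the motor of SWI/SNF, had means of 23.6 and 37.3 in record XM_004378330.1, with 21.8, 15.6, 19.3 and 37.7 in the 4 libraries, and of 2.26 and 6.29 in record XM_004378329.1, where the 7-library mean was 4.84-fold higher without the library of size factor 1.56.

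ARID proteins, which bind DNA through a shared domain, had 6 rows of 5 genes, 4 of them lower in the 4-library mean. ARID1A, a subunit of SWI/SNF that is often lost in tumors, had the lowest ratio of all members with an overall mean of at least 10, with means of 4.04 and 17.4 and a log2 ratio of -2.11. In the 4 libraries its values were 1.28, 6.81, 8.06 and 0, from 14 reads. All 4 lay under the 7-library mean, and leaving out any 1 of them gave a 7-library mean between 3.23-fold and 6.44-fold higher. ARID1A passed the minimum only through its 7-library mean, and the 7 libraries were not recovered. These low values are therefore no further support for the call. ARID5B, a coactivator with a role in lymphoid cells, had means of 232 and 437 in record XM_004369855.1, a log2 ratio of -0.92, and ARID3A, a transcription factor of B cells, had the highest ratio of the class among rows with an overall mean of at least 10, with 91.9 and 89.6.

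CHD remodelers had 8 rows of 6 genes, with a median log2 ratio of 0.20 and 6 rows higher in the 4-library mean; with an overall mean of at least 10 the median was 0.12 over 6 rows, 4 of them higher. CHD1, which acts during transcript elongation, had means of 5046 and 4370. CHD9 had record XM_004371589.1 past 2-fold, with means of 6.59 and 17.9, and record XM_004371587.1 with means of 22.8 and 23.6. The near equality of the second record rested on 1 library: its values were 24.4, 9.74, 11.3 and 45.7, and without the library of size factor 0.372 the 7-library mean was 1.56-fold higher. The 4 values of the first record, 5.13, 7.79, 8.06 and 5.38, lay close together and all under the 7-library mean. The difference was between 2.53-fold and 2.94-fold when any 1 of the 4 was left out. This record passed the minimum only through its 7-library mean, and the 7 libraries were not recovered, so its low values are no further support. CHD3, an ATPase of the NuRD complex, had means of 25.1 and 12.7 in record XM_004376013.1, with 26.3, 11.7, 3.22 and 59.2 in the 4 libraries. That excess rested on the library of size factor 0.372, without which it was 1.08-fold, while it was 1.95-fold without the library of size factor 1.56, 2.33-fold without that of 1.03 and 2.55-fold without that of 0.620.

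DNA methylation has its own writers and erasers. TET2, which oxidizes methylcytosine and restrains myeloid expansion, had means of 1623 and 2355, a log2 ratio of -0.54, and TET1 had 490 and 661, a log2 ratio of -0.43. DNMT3A, which methylates unmethylated DNA, had means of 52.9 and 57.4, with 50.7, 50.6, 32.2 and 78.0 in the 4 libraries. The 7-library mean lay inside that range, and without the library of size factor 0.620 the ratio was 1.04. DNMT3B, the second enzyme of this kind, was scarcely detected, with means of 2.47 and 1.02.

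**Figure D3:**
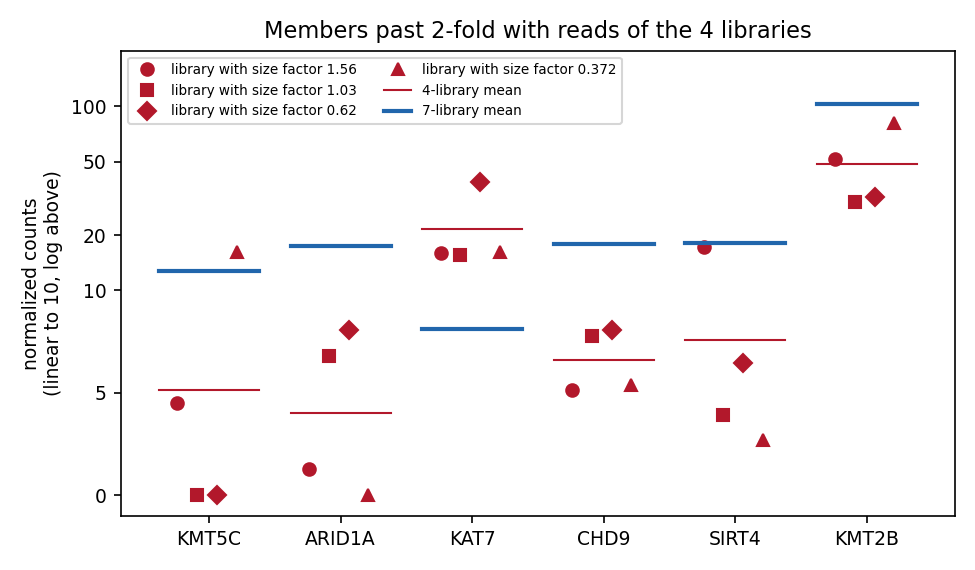
Normalized counts of the 6 called members whose reads in the 4 libraries could be recovered, 1 symbol per library, with the 4-library mean as a thin red line and the 7-library mean as a blue line; the axis is linear to 10 and logarithmic above. For ARID1A, CHD9, KMT2B and SIRT4 all 4 values lie under the 7-library mean, for KAT7 all lie above it, and for KMT5C they lie on both sides. The 7 libraries behind the blue lines were not recovered. All but KMT2B passed the minimum of 10 only through their higher mean.

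Reads in the 4 libraries were recovered for 42 of the 76 member rows, those with a 4-library mean of up to 80. For 4 called members, SIRT1, SETD9, KDM2A and KMT2D, the means were too high, so no spread can be given. Of the 20 member rows with recovered reads and a 4-library mean of at least 10, the library of size factor 0.372 held the highest value in 10, or 50%, against 36.0% of 4975 such rows in the table. The library of size factor 1.03 held the lowest value in 11 of the 20, against 23.5%. The shallowest library was thus often the highest, in the set as in the table.

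Values of all 11 libraries were recovered for 12 member rows, all weakly expressed. Because the limits were a 4-library mean of 80 and a 7-library mean of 6, rows higher in the 4-library mean entered more easily than rows higher in the other. The groups did not separate without overlap in any of the 12, against 2.85% of the 4449 rows of this kind. An exact two-sided permutation test over all choices of 4 of the 11 libraries gave a p under 0.05 in 2 of the 12 (16.7%), CHD5 and a row of HDAC9, against 21.4% of the 4449. After Benjamini-Hochberg adjustment over the 4449 rows none of the table reached an adjusted p under 0.05, with 953 under it before adjustment, and the smallest adjusted p was 0.110.

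CHD5, a NuRD ATPase best known from neurons, had 3.85, 1.95, 11.3 and 13.5 normalized counts in the 4 libraries. In the 7 libraries the lowest was 0, the median 0 and the highest 3.62, with 5 libraries at 0. The lowest of the 4 values lay below the highest of the 7, so the groups overlapped. The fold between the means was 8.21, over a 7-library mean that rested on 9 reads. Without the library that held 3.62, the difference between the means rose from 6.70 to 7.15 normalized counts, so the fold was larger. With all libraries the exact permutation test gave p = 0.0121, with an adjusted p of 0.172 by Benjamini-Hochberg. HDAC9 record XM_004377428.1 had 0, 5.84, 9.67 and 24.2 in the 4 libraries and, in the 7, a lowest value of 0, a median of 0 and a highest of 5.43. The exact permutation test gave p = 0.0303 and an adjusted p of 0.184, and p = 0.0848 on the log scale. The exact p was 0.00833 without the library of size factor 1.56, but 0.0667 without the library of size factor 1.03 and 0.0833 without that of 0.620 or of 0.372, and without the last of these the fold fell from 7.22 to 3.76.

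In the other 10 rows the exact p ran from 0.0879 to 0.967, which does not show that the groups were equal. SMARCB1, a core subunit of SWI/SNF, had 4.49, 13.6, 3.22 and 0 in the 4 libraries of record XM_004386158.1 against a median of 1.68 in the 7. Its 3.43-fold difference was 1.65-fold without the library of size factor 1.03, and its exact p of 0.0879 ran from 0.0167, without that of 0.372, to 0.417, without that of 1.03, when 1 of the 11 libraries was left out; it was also under 0.05 without the shallowest of the 7, at 0.0476. SMARCD3, a subunit found in heart and muscle complexes, had 3.85, 0, 1.61 and 5.38 against a median of 1.16, and KAT6B record XM_004383206.1 had 7.70, 5.84, 3.22 and 0 against a median of 2.31. The exact p of SMARCD3, 0.173 with all libraries, ran from 0.0333 with that of size factor 1.03 left out to 0.508 with that of 0.372 left out. For KAT6B the exact p of 0.233 ran from 0.0417 with that of 0.372 left out to 0.625 with that of 1.56 left out, and no other single library brought either under 0.05. DNMT3B had 2.57, 1.95, 0 and 5.38 against a median of 0, and its fold of 2.43 was 1.48 without the library of size factor 0.372. Without the highest of the 7 libraries, at 3.62, the excess of its 4-library mean rose from 1.45 to 1.89 normalized counts. CHD3 record XM_004376014.1 and ARID5B record XM_004369856.1 had values from 1.61 to 8.07 and from 1.95 to 8.06 in the 4 libraries, and from 0 to 9.05 and from 0 to 13.6 in the 7. The last of these fell under equality, at 0.818-fold, without the library of size factor 0.620. The same library of the 7 held the highest value of both records. Without it the excess of the 4-library mean rose from 1.44 to 2.51 normalized counts for CHD3 and from 0.777 to 2.51 for ARID5B.

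The 3 weak rows of KDM6A pointed in different directions. Record XM_004376911.1 had a single read in the 4 libraries and 15 in the 7, an 11.9-fold higher 7-library mean with a 95% Poisson interval of 2.13 to 469 for the single read alone. Record XM_004376915.1 had 5.77, 0, 0 and 8.07 in the 4 libraries and from 0 to 8.55 in the 7. Record XM_004376914.1 had 1.28, 0, 0 and 5.38, and from 0 to 5.23 in the 7. Both ran higher in the 4-library mean, and both turned to a lower one, 0.787-fold and 0.469-fold, without the library of size factor 0.372. Leaving out the highest of the 7 libraries moved both the other way. The excess of the 4-library mean rose from 1.02 to 2.03 normalized counts for record XM_004376915.1. For record XM_004376914.1 it rose from 0.754 to 1.47.

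**Figure D4:**
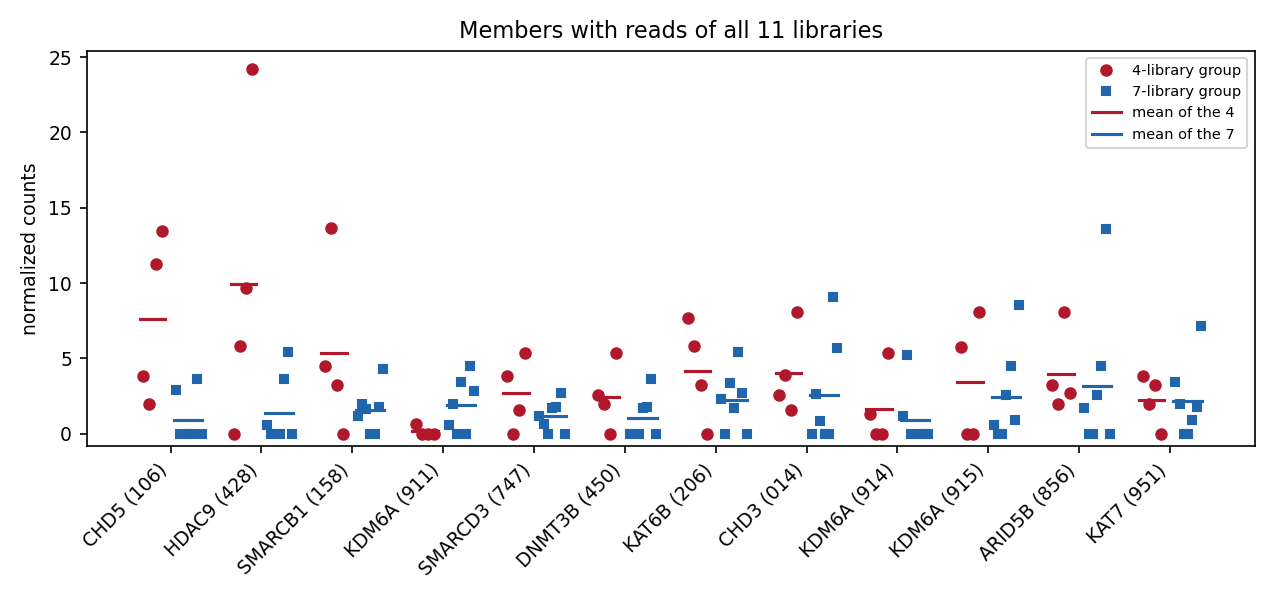
Normalized counts of the 12 member rows whose reads were recovered in all 11 libraries, ordered by exact p, with the 4 libraries as red circles, the 7 as blue squares and bars at the group means; the digits in brackets are the last of the record number. CHD5 and HDAC9 stand at the left with means of 7.63 against 0.930 and 9.93 against 1.37, and the groups overlap in all 12 rows.

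Genes with several rows were a feature of the set that the choice by symbol did not use. There were 9 such genes with 21 rows, and in 4 of the 9 the rows differed in direction. The median overall mean was 8.09 in these rows and 219 in the 55 rows of genes with a single row, against 11.6 and 40.5 over all rows with a symbol. How reads shared by the records of 1 gene were assigned is not given in the sources used here, so the direction of a gene with several rows is uncertain. Member genes were also long: their median span in the genome was 55928 bases, against 23309 for all genes with a row. Across 6771 rows with a symbol and an overall mean of at least 10 the Spearman correlation of span with the log2 ratio was -0.11, and across the members with that minimum it was -0.16. These are correlations across genes, which share the same libraries and are not independent. Rows with a span of at least the median of the members had a median log2 ratio of -0.11 and shorter ones 0.06, and the part of gene span in the counts of the set was not tested.

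Other genes of the same complexes were taken from lists. Polycomb proteins, which keep genes silent and are antagonists of SWI/SNF and KMT2 enzymes, had a median log2 ratio of 0.49, and 17 of their 22 rows were higher in the 4-library mean. JARID2, a subunit that guides Polycomb to its targets, had means of 1095 and 500. The core subunits SUZ12 and EED had 1372 and 1314, and 367 and 290. Among the 5 rows that ran the other way were ASXL2, the second most abundant, with 716 and 1499, a log2 ratio of -1.07, and CBX7 with a log2 ratio of -0.77. Subunits of deacetylase complexes had 6 of 17 rows higher in the 4-library mean and a median of -0.43. RCOR1, the partner of KDM1A, had 161 and 309, and MTA2 of the NuRD complex 271 and 488. The most abundant of them, the histone-binding RBBP7, ran the other way with 2033 and 1297, as did SAP18 of the SIN3 complex with 790 and 362, and the summed level of the list was 4056 in the 4-library and 3516 in the 7-library mean.

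Histone methyltransferases outside the naming pattern, together with the subunits of KMT2 complexes, had 10 of 25 rows higher in the 4-library mean and a median of -0.27. WDR5, RBBP5 and MEN1 assemble with the KMT2 enzymes. WDR5 had means of 56.3 and 128 and MEN1 9.16 and 26.6. RBBP5 had rows of opposite direction, with 118 and 200 in record XM_004375234.1 and, in the weakly expressed record XM_004375235.1, a log2 ratio of 0.33. DPY30, a further subunit of these complexes, had 206 and 130. Acetyltransferases and their partners had 10 of 18 rows higher and a median of 0.22, with EP300 at 1114 and 1365 and ING3 at 1171 and 401. Remodeler subunits outside the pattern had 8 of 17 and -0.04, JmjC proteins 2 of 5 and -0.33, and histone chaperones, which carry histones to DNA, 7 of 10 and 0.41. Over all 114 rows of these lists 52.6% were higher in the 4-library mean, and of the 87 with an overall mean of at least 10, 12.6% were called higher in the 4-library mean and 8.05% in the 7-library mean, against 56.4%, 12.3% and 9.59% in the whole table. The median log2 ratio was 0.11 over the 114 rows and -0.10 over the 87. The 4-library mean exceeded the other in 47.1% of the 87, against 49.2% of such rows in the table.

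**Figure D5:**
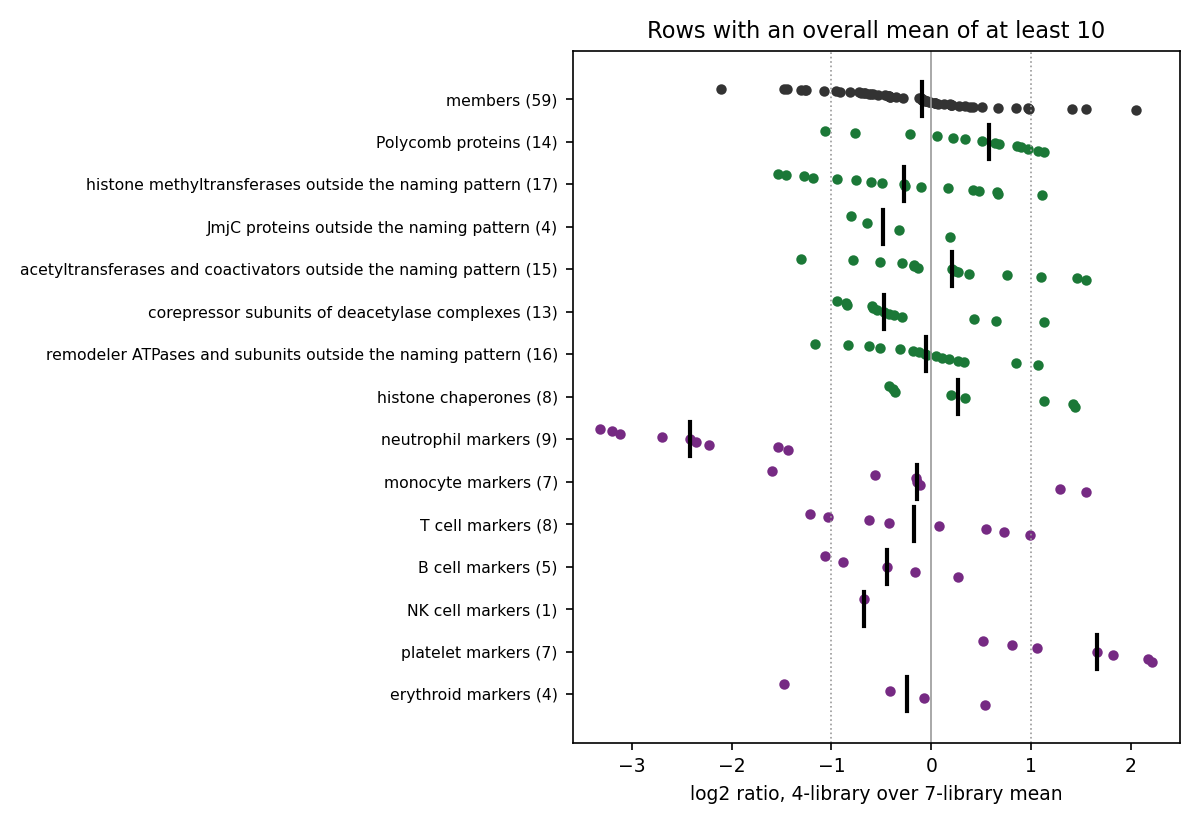
Log2 of the 4-library mean divided by the 7-library mean for rows with an overall mean of at least 10: members (black), other chromatin genes (green) and cell type markers (purple), with the number of rows in brackets, bars at the medians and dotted lines at 2-fold. The members center at -0.09, the neutrophil markers at -2.41 and the platelet markers at 1.66.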

How the data were processed

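The sample labels put 4 buffy coats in the red tide and 7 in the control group. The authors filtered reads with Cutadapt, aligned them with Bowtie2 to TriManLat1.0, dropped duplicates and reads without a unique position, and counted the rest by gene sequence. For these steps the authors used proprietary scripts of a research center at the University of Florida, with SAMtools and the DEB platform, which runs DESeq and edgeR. Not given in the sources used here was the annotation release. The authors deposited a signal: counts, scaled by the size factor of each library from the DESeq method, averaged over each group and over all libraries. The other 4 columns hold the comparison made by the authors (fold change, its log2 value, p-value and adjusted p-value) and were not used. No column holds a single sample, so the groups were compared by their means, and by an exact test in rows with recovered reads of all libraries.

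Records were matched to RefSeq without their version. The worth of 1 read in each library was found from the lowest means, and reads were recovered, to within 6e-10 for means below 10 and 6e-09 for higher ones, where 1 combination of whole reads gave that mean: 9631 of 9634 rows whose 4-library mean was at most 80 and 4467 of 4505 whose 7-library mean was at most 6. The procedure and the exact test were tested on simulated data. Recovered libraries are not linked to animals, and intervals cover counting error only. Storage is described as RNAlater in the labels, and the paper adds freezing for the red tide samples.

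Members with an overall mean of at least 10 were named when at least 2-fold apart, when highest or lowest in their class or when in a fixed set of 32 genes, and members with reads of all 11 libraries at any mean; other names were chosen after their values were seen. Members and lists were chosen with earlier results of these data known. Python 3.11.15, numpy 2.4.6, pandas 2.3.3 and scipy 1.17.1 were used. Alternatives concerned pseudocount, centring, minimum mean, fold threshold, genes with several rows and left-out libraries.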

Additional observations from a re-analysis of the deposited data

Results flagged for a closer look

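In 54 groups of recovered libraries with differing values, 6 held a library that stood far from the others of its group; chance gives this in about 5% of groups of normally distributed values, which sparse reads are not. In 1 of the 6 it followed from the reads alone, since a single read beside zeros always stands apart. In the 4-library group, KAT7 record XM_004377952.1 reached 38.68 in the library of size factor 0.620 against a next value of 16.1, and SETD6 reached 66.08 in the same library against 25.7. SETD1A reached 88.78 in the library of size factor 0.372, against 40.3. KDM6A record XM_004376911.1 was that group, with 0.6415 in the library of size factor 1.56 and 0 in the others. In the 7-library group, ARID5B record XM_004369856.1 reached 13.58 from 15 reads, against 4.52, and KDM6A record XM_004376914.1 reached 5.228 from 8 reads, against 1.16.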

How the results depend on the processing

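No paired analysis was possible because the columns carry no replicate numbers. The count of members higher in the 4-library mean, 33 of 76, was 21 of 59 at an overall mean of at least 10 and 10 of 33 at 100, and 20 of 55 among genes with a single row, an alternative chosen after seeing the data; fewer rows enter each. The median log2 ratio stayed between -0.09 and -0.05. The called members, 3 higher in the 4-library and 7 in the 7-library mean, numbered 7 and 16 at 1.5-fold, 1 and 1 at 4-fold, 8 and 9 with no minimum mean and 2 and 2 at a minimum of 100, which follows from the thresholds. The members' shares at 1.5-fold, 11.9% and 27.1%, stood against 22.8% and 21.6% of all rows. At 4-fold they were 1.69% in each direction against 3.81% and 1.41%, with no minimum 10.5% and 11.8% against 23.9% and 10.4%, and at a minimum of 100, 6.06% in each against 8.76% and 8.09%. When any 1 of the 4 libraries was left out, the called members ranged from 3 to 5 and from 5 to 8. That alternative was chosen after seeing the data and was possible only for members with recovered reads. No share over all rows is given for it, so nothing is read from this range. Among the 12 rows with 11 libraries, 2 (16.7%) had an exact permutation p under 0.05 before adjustment, against 21.4% of the 4449 such rows. None did after adjustment. On the log2 scale 1 did before adjustment, where the cause was not tested, and from 1 to 3 did with 1 library left out. No share over all rows is given for these alternatives, so nothing is read from their counts. Leaving out libraries for members outside the rule for named genes was also chosen after seeing the data. KDM6A record XM_004376911.1 gave no ratio without the library that held its single read. Medians of the enzyme classes and other lists moved within the 95% order interval of the main median, or within the range of classes too small for one. The main limits are that the means of well expressed members have no error, that single libraries are known for weak rows only, and that 13 to 23 reads in the 4 libraries stand behind the calls of KMT5C, ARID1A and CHD9.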
